A study of Gallus gallus with 4 samples.

Results

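Genes that drive programmed cell death, or hold it back, were examined in granulosa cells of the chicken ovary. The set named 35 genes, and 29 of them were found by gene name, case ignored, among the 19309 gene rows of the expression tables. BAK1, BCL2L11, CASP1, ENDOG, TNFRSF10B and XIAP were not analysed here. Each of the 29 stood on 1 row, on the same chromosome as RefSeq gives for its symbol in assembly GRCg7b. By role, 8 belong to the BCL2 family, 3 are mitochondrial factors, 5 are caspases, 2 are inhibitors of caspases, 9 belong to the death receptor pathway and 2 are survival regulators outside these families.

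Hens (Gallus gallus) of 10 to 15 months of age gave the granulosa cells whose RNA was sequenced. Cells proximal and cells distal to the germinal disc, where the nucleus of the oocyte lies, were sampled from F5 and F1 follicles, ranks of the preovulatory hierarchy that count down to F1, the next follicle to ovulate. This gave 4 groups with 1 library each, namely F5 proximal, F5 distal, F1 proximal and F1 distal, and the labels give no strain or agent for any of them. How many hens or follicles a library pools is not stated in the labels, nor whether the proximal and distal cells of a stage came from the same follicle.

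A follicle that does not go on to ovulate degenerates by atresia, a process in which death of granulosa cells is an early event, and follicles that have entered the hierarchy rarely become atretic. In the mitochondrial route to death, BCL2 family proteins that share a BH3 motif are held in check by survival members such as BCL2L1 and MCL1; when these are overcome, the mitochondrial outer membrane is breached, cytochrome c meets APAF1, and caspase-9 is activated. In the death receptor route, ligands of the TNF family engage receptors that recruit FADD and caspase-8, and CFLAR blocks that step. The study's design asks how these cells differ by position and by stage. The values below are RNA levels, which for many of these proteins are set apart from activity by cleavage, phosphorylation or release from mitochondria.

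Depth ranged from 13948790 reads in F1 distal to 18020270 reads in F1 proximal cells. Levels are in FPKM, reads relative to the length of the gene and the size of the library, and the egg coat gene ZP3 took 1.98% of reads in F5 proximal cells and 15.4% in F1 distal cells. Tests used log2(FPKM + 1) over the 11203 genes averaging 1 FPKM or more, of which the median gene lay 0.33 lower on the log2 scale in F1 than in F5; after median-ratio scaling, which sets the typical gene equal between libraries, this median was 0.002. The labelled cell type was checked on markers. The 10 granulosa markers were above 0 in all 4 libraries, with a summed level of 21575 to 120291 FPKM, of which ZP3 alone gave 14379 FPKM in F5 proximal and 111496 FPKM in F1 distal cells. The 8 leukocyte markers found summed to between 0.385 and 2.01 FPKM, with SPI1 at 0 in every library, and the 8 theca and stroma markers to between 7.5 and 16.4 FPKM, with LUM at 0 in every library. COL1A2 gave most of the theca and stroma sum, from 6.55 FPKM in F1 distal to 11.8 FPKM in F1 proximal cells, and was alike between the stages within a position. CYP17A1 was lower in F1, at 0.135 (proximal) and 0.305 FPKM (distal) against 2.59 and 2.17 FPKM in F5, and PDGFRB was lower in F1 too. DCN and PDGFRA were above 0 only in F1, on at most 4 reads. The part of such markers in the stage differences was not tested. Of 8 endothelial markers, KDR, TEK and VWF stayed below 0.1 FPKM. The list summed to between 61.4 and 173.6 FPKM, most of it from CLDN5 and EGFL7. PECAM1 was also detected, at 3.38 to 5.31 FPKM. EMCN stood at 10.6 FPKM in F5 proximal against 0.986 FPKM in F5 distal cells, and 3.67 against 0.116 FPKM in F1. The 6 rows of erythrocyte genes summed to at most 0.768 FPKM. The sum of the 6 oocyte markers moved with position, at 16.4 FPKM in F5 proximal against 2.62 FPKM in F5 distal cells. In F1 it was 10.0 against 0.669 FPKM. Not every marker did so, since SYCP3 stood at 1.32 FPKM in F5 proximal against 1.69 FPKM in F5 distal cells. DDX4 was at 0 in both F5 libraries. In such bulk samples, fewer cells of a type and less RNA per cell cannot be told apart.

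Of the 29 genes, 27 were above 0 FPKM in all 4 libraries and 25 had a mean of at least 1 FPKM and entered the tests. BCL2L1 had the highest mean, 218.0 FPKM, which lay above 97.2% of genes tested. AIFM1, MCL1, BID and FADD followed, with means of 58.6, 40.2, 29.3 and 27.2 FPKM. CASP10, FAS, BCL2A1 and BCL2L14 fell below the filter. The highest library was less than 1.2 times the lowest for 5 of the 25 tested genes and more than 2 times the lowest for 12.

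**Figure D1:**
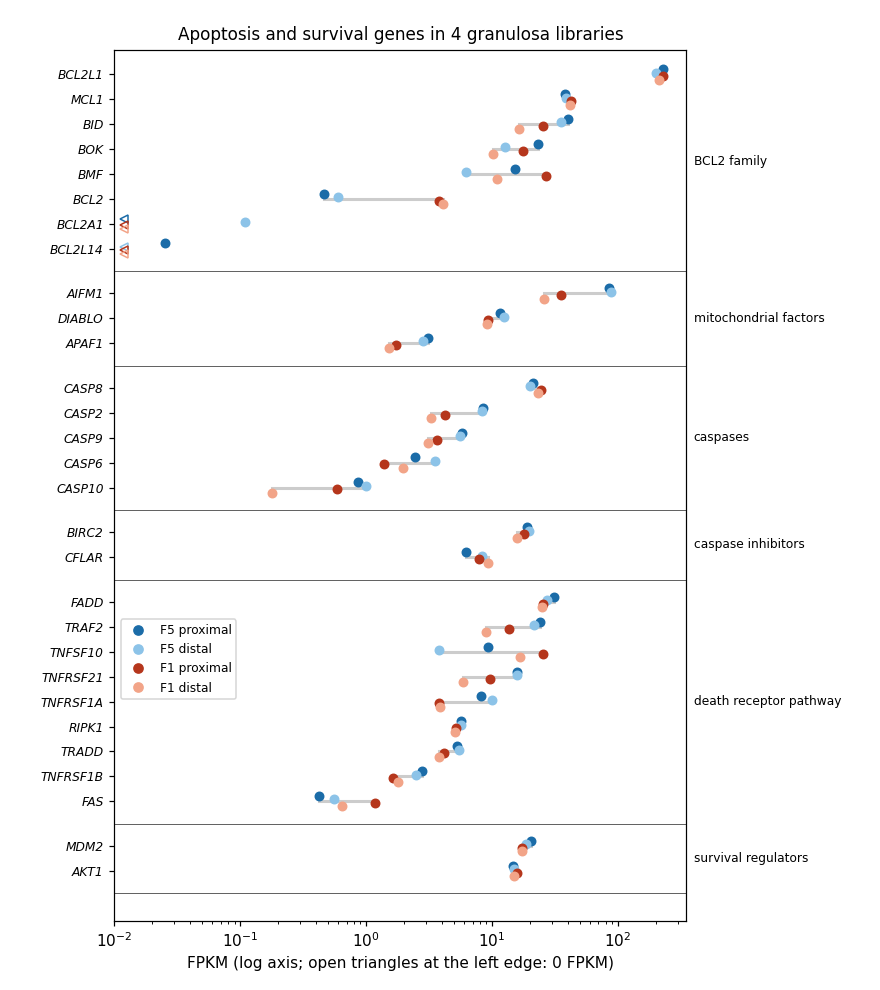
FPKM of the 29 genes in each of the 4 libraries on a log axis, grouped by role, with 1 dot per library and open triangles at the left edge for 0 FPKM. The dots of BCL2L1, MCL1, RIPK1, MDM2 and AKT1 nearly coincide, while BCL2 and TNFSF10 spread furthest among the genes tested, their highest library being 8.85 and 6.68 times the lowest.

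Between the stages, 9 of the 25 tested genes fell from F5 to F1 and 3 rose, by an additive limma fit with position as a covariate at an adjusted p of 0.05. Over all genes tested 35.8% fell and 10.4% rose, so the shares among these genes, 36% and 12%, lay near the background. Without a test, 8079 of the 11203 genes were lower in F1 in proximal cells and 8370 in distal cells. How many genes had both F1 libraries below, or above, both F5 libraries was not counted, so such statements below have no background. By role, of the 15 tested genes that promote death 8 fell and 2 rose, whereas of the 7 that oppose it 0 fell and 1 rose. The 1 that rose, BCL2, passed the filter of 1 FPKM only through its F1 libraries. Of 3 with a mixed role, 1 fell. These roles are assigned labels, and the counts depend on them. The gene that fell with a mixed role, TRAF2, favours survival signalling. AIFM1, counted as promoting death, also supports the respiratory chain. The median log2 difference was -0.57 for the first group and 0.04 for the second, beside -0.33 over all genes tested, and the difference between the groups was not tested. After median-ratio scaling 4 of the 15 fell and 3 rose, 0 of the 7 fell and 5 rose, and the medians came to -0.29 and 0.42. AIFM1, TNFRSF1A, CASP2, TRAF2 and BID fell under both scalings, and BCL2, TNFSF10 and BMF rose under both. BCL2L1, MCL1, CFLAR, AKT1 and CASP8 passed as higher in F1 only after median-ratio scaling, under which 19.4% of all genes rose and 16.9% fell. The fit has 1 residual degree of freedom and lets proximal and distal libraries stand in as replicates of a stage. That degree of freedom holds how the stage difference varies with position, in which real variation and technical noise cannot be told apart. The p-values thus reflect only the spread among these 4 libraries, not that between hens or follicles.

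**Figure D2:**
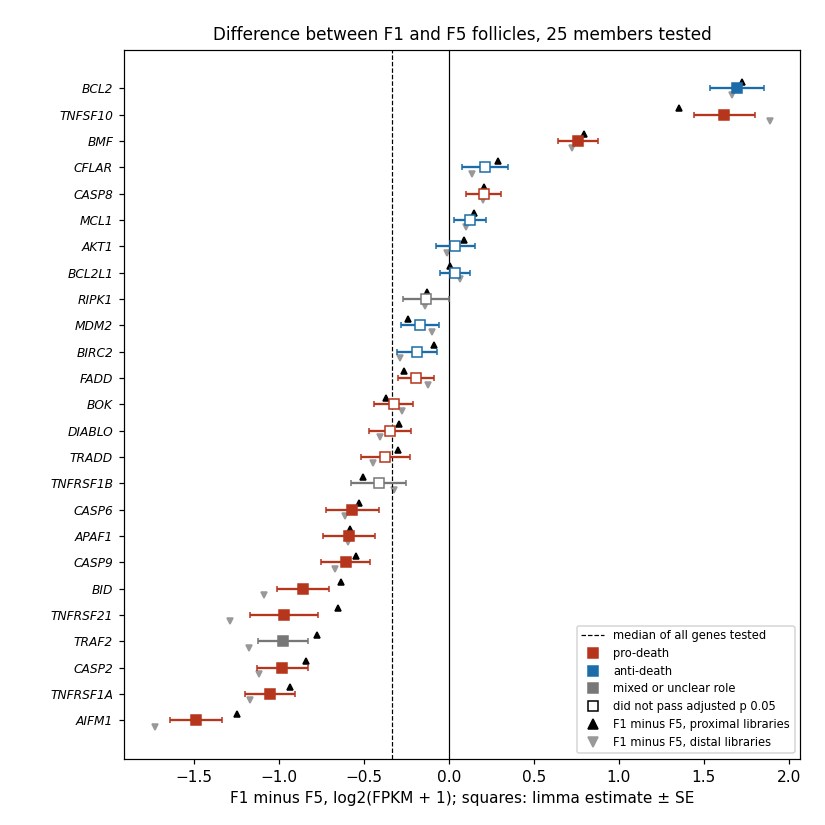
Difference between F1 and F5 on the log2(FPKM + 1) scale for the 25 genes tested. Squares are limma estimates with their SE, filled where the adjusted p was below 0.05 and coloured by role in death; black and grey triangles are the differences in proximal and in distal cells, the solid line is 0 and the dashed line is the median of all genes tested, -0.33. BCL2, TNFSF10 and BMF lie to the right, and no gene labelled anti-death is among the 9 filled squares on the left. TRAF2, which favours survival signalling, is there under the mixed label.

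BCL2L1 (ENSGALG00000006211, chromosome 20, 10359785 to 10377592, in the coordinates of the deposited tables, for which no sources used here name a build), which encodes BCL-xL, a survival protein of the mitochondrial membrane, stood at 228.8 (proximal) and 202.2 FPKM (distal) in F5, and 229.9 (proximal) and 211.1 FPKM (distal) in F1. The 4 libraries thus lay close together, with the proximal library the higher in each stage. MCL1, a short-lived survival protein, stood at 38.1 and 38.8 FPKM in F5 and 42.2 and 41.7 FPKM in F1. Neither passed the test of stage (limma adjusted p = 0.758 for BCL2L1 and 0.332 for MCL1). After median-ratio scaling both did, with log2 differences of 0.42 (SE 0.0999) and 0.50 (SE 0.0934) and limma adjusted p-values of 0.0386 and 0.0224.

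BCL2 (ENSGALG00000012885, chromosome 2, 67926747 to 68013683), the founding survival member of the family, stood at 0.458 FPKM in F5 proximal and 0.595 FPKM in F5 distal cells, on 17 and 23 reads. In F1 it stood at 3.81 and 4.06 FPKM, on 153 and 126 reads. Both F1 libraries lay above both F5 libraries, and BCL2 rose by a log2 difference of 1.69 (SE 0.158, limma adjusted p = 0.0118), further than 98% of genes tested. Its F5 levels lay below 1 FPKM, so BCL2 passed the filter only through F1, where it is high. The call and the rank are not independent of that filter. Without the filter on low values the difference was the same (SE 0.153, limma adjusted p = 0.0294). As a ratio of FPKM it was 8.32-fold higher in proximal cells (95% exact binomial interval 5.03 to 14.7, from reads recovered from the FPKM and covering counting error only, as do all intervals below) and 6.81-fold higher in distal cells (4.35 to 11.1). Even in F1 its level was a small part of that of BCL2L1. BCL2A1, a further survival member, had 1 read in F5 distal cells and 0 in the other 3 libraries, and BCL2L14, whose role in death is unclear, had 1 read in F5 proximal cells only.

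BMF (ENSGALG00000014537, chromosome 5, 28673487 to 28690778) encodes a BH3-only protein that binds and neutralises survival members. It stood at 15.1 (proximal) and 6.20 FPKM (distal) in F5, and 27.0 (proximal) and 10.9 FPKM (distal) in F1. Each position was higher in F1, but the F5 proximal library lay above the F1 distal library. BMF rose by 0.76 from F5 to F1 (SE 0.116, limma adjusted p = 0.0172), 1.78-fold in proximal (1.47 to 2.18) and 1.76-fold in distal cells (1.27 to 2.43). BID (ENSGALG00000013039, chromosome 1, 61984896 to 62003326), the BH3-only protein that caspase-8 cleaves to carry a receptor signal to mitochondria, went the other way. Its level was 39.9 (proximal) and 35.6 FPKM (distal) in F5, and 25.4 (proximal) and 16.2 FPKM (distal) in F1. Both F1 libraries lay below both F5 libraries, and BID fell by 0.86 (SE 0.152, limma adjusted p = 0.0214), 1.57-fold in proximal (1.41 to 1.76) and 2.19-fold in distal cells (1.91 to 2.52). BOK, a member that can permeabilise mitochondria by itself, stood at 23.3, 12.6, 17.7 and 10.3 FPKM in F5 proximal, F5 distal, F1 proximal and F1 distal cells. Its proximal libraries were the 2 highest, and its stage difference of -0.33 did not pass (limma adjusted p = 0.0815).

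Ratios between genes of the same library do not depend on how libraries are scaled. BCL2L1 transcripts per length outnumbered those of BID 5.73-fold in F5 proximal (5.33 to 6.17) and 5.68-fold in F5 distal cells (5.26 to 6.13), but 9.06-fold in F1 proximal (8.32 to 9.90) and 13-fold in F1 distal cells (11.5 to 14.7). The ratio to BID, which fell, was thus larger in both F1 libraries. This depends on the partner, since BMF rose while BCL2L1 was nearly unchanged. Relative to BMF, BCL2L1 was lower in F1 than in F5 at each position. BMF amounted to 0.378 of BID in F5 proximal (0.317 to 0.449), 0.174 in F5 distal (0.134 to 0.223), 1.06 in F1 proximal (0.922 to 1.22) and 0.671 in F1 distal cells (0.526 to 0.848). BMF relative to BID was thus highest in F1 proximal and lowest in F5 distal cells; with 1 library a group, the intervals say nothing of the spread between samples. Summed FPKM of BCL2L1, MCL1, BCL2 and BCL2A1 exceeded that of BID, BOK and BMF 3.41-fold in F5 proximal, 4.44-fold in F5 distal, 3.94-fold in F1 proximal and 6.87-fold in F1 distal cells. BCL2L1 made up 82.2% to 85.6% of the first sum. Without BCL2L1 the ratios came to 0.493, 0.726, 0.658 and 1.22 in the same order, again highest in F1 distal cells. BAK1 and BCL2L11, which would belong to the second sum, are not in it.

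**Figure D3:**
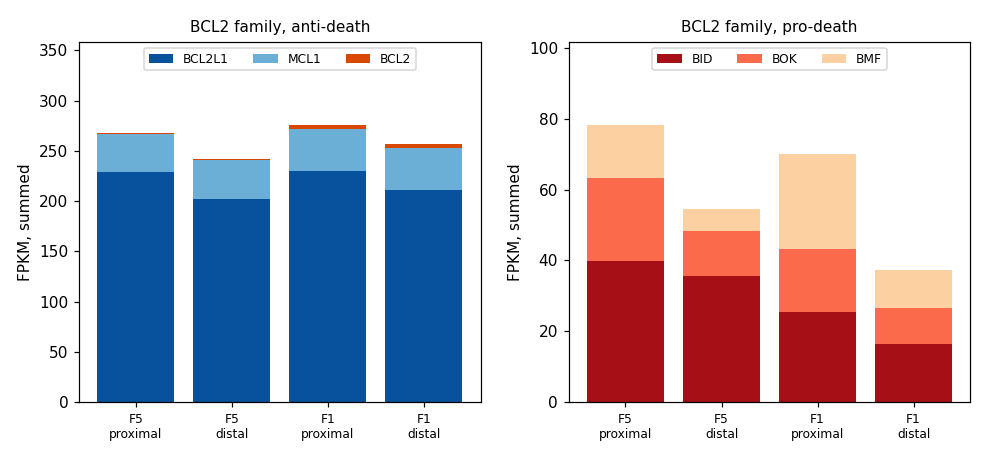
Summed FPKM of the anti-death (left) and pro-death (right) BCL2 family genes in each library, stacked by gene, with no replicates and hence no error bars; the 2 panels have different scales, and BCL2A1, with 1 read in all, is left out. With BCL2A1 counted in, the sums on the left lie between 241.8 and 276.0 FPKM. The right bars range from 37.4 FPKM in F1 distal to 78.3 FPKM in F5 proximal cells, with BID shrinking in F1 and BMF widest in F1 proximal cells.

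AIFM1 (ENSGALG00000004003, chromosome 4, 1555732 to 1567433), a mitochondrial flavoprotein that supports the respiratory chain and moves to the nucleus during caspase-independent death, stood at 84.6 (proximal) and 88.8 FPKM (distal) in F5, and 35.0 (proximal) and 26.0 FPKM (distal) in F1. Both F1 libraries lay well below both F5 libraries. AIFM1 had the lowest estimate of the 25 genes, with a log2 difference of -1.49 (SE 0.154, limma adjusted p = 0.0128), with 6.12% of genes tested lower still. It was lower in F1 by 2.42-fold (2.26 to 2.59) among proximal cells and by 3.42-fold (3.15 to 3.71) among distal cells. APAF1, the scaffold on which caspase-9 assembles, stood at 3.09 and 2.82 FPKM in F5 and 1.73 and 1.53 FPKM in F1, and fell by 0.59 (SE 0.154, limma adjusted p = 0.0439). DIABLO, which displaces inhibitors from caspases once released from mitochondria, stood at 11.5 and 12.4 FPKM in F5 and 9.24 and 9.16 FPKM in F1. Its F1 libraries were also the lower ones, but the difference of -0.35, about that of the median gene, did not pass (limma adjusted p = 0.0833).

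Among the caspases, CASP2, CASP9 and CASP6 fell from F5 to F1 and CASP8 did not pass. CASP2 (ENSGALG00000014698, chromosome 1, 77150674 to 77176640), an initiator caspase, stood at 8.41 (proximal) and 8.33 FPKM (distal) in F5, and 4.25 (proximal) and 3.30 FPKM (distal) in F1. It fell by 0.98 (SE 0.152, limma adjusted p = 0.0176), and its F5 libraries were almost equal. CASP9, the initiator that acts on the APAF1 scaffold, stood at 5.76 and 5.56 FPKM in F5 and 3.63 and 3.13 FPKM in F1 and fell by 0.61 (SE 0.144, limma adjusted p = 0.0364). CASP6, an effector caspase, stood at 2.43 and 3.50 FPKM in F5 and 1.38 and 1.94 FPKM in F1 and fell by 0.57 (SE 0.155, limma adjusted p = 0.0481). In each of these genes both F1 libraries lay below both F5 libraries, a pattern whose share over all genes was not counted. Of all genes tested, 13.9%, 29.2% and 31.5% had lower estimates than CASP2, CASP9 and CASP6, and 30.3% lower than APAF1. The calls of CASP9, CASP6 and APAF1 were lost after median-ratio scaling, with log2 differences of -0.29, -0.30 and -0.32 and limma adjusted p-values of 0.160, 0.207 and 0.181.

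CASP8, the initiator at death receptors, was the highest of these caspases in every library. It stood at 21 (proximal) and 20.2 FPKM (distal) in F5, and 24.4 (proximal) and 23.3 FPKM (distal) in F1, so that the F1 libraries were slightly higher, by 0.20 on the log2 scale (limma adjusted p = 0.173). After median-ratio scaling it rose by 0.58 (SE 0.103, limma adjusted p = 0.0205). CASP10, a relative of CASP8, had 23 (proximal) and 28 (distal) reads in F5, and 17 and 4 in F1, or 0.860, 1.01, 0.588 and 0.179 FPKM, too few to enter the fit. CFLAR (ENSGALG00000008240), CASP10 and CASP8 lie in a row on the plus strand of chromosome 7, from 10900361 to 10955503, a span of 55143 bases that also holds CASP18, which had at most 0.0448 FPKM. CASP10 and CASP18 were thus both low, and CFLAR and CASP8 on either side of them were expressed in every library. CFLAR, a caspase-8 homologue without protease activity that blocks its recruitment, stood at 6.23 (proximal) and 8.34 FPKM (distal) in F5, and 7.84 (proximal) and 9.23 FPKM (distal) in F1. The distal library was the higher in each stage, and the stage difference of 0.21 did not pass (limma adjusted p = 0.246), whereas after median-ratio scaling it was 0.56 (SE 0.116, limma adjusted p = 0.0289). CASP8 outnumbered CFLAR per length 3.38-fold in F5 proximal (2.95 to 3.88), 2.42-fold in F5 distal (2.14 to 2.74), 3.12-fold in F1 proximal (2.77 to 3.51) and 2.53-fold in F1 distal cells (2.22 to 2.88). The ratio was higher in proximal than distal cells of both stages. The 2 intervals do not overlap in F5 but do in F1, and they cover counting error only, not the spread between samples. BIRC2, a ubiquitin ligase of the inhibitor of apoptosis family, stood at 19.1 and 19.7 FPKM in F5 and 17.9 and 15.9 FPKM in F1, with F1 distal cells lowest, and did not pass (limma adjusted p = 0.245).

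In the death receptor pathway the ligand TNFSF10 rose, and the receptors TNFRSF1A and TNFRSF21 and the adaptor TRAF2 fell. TNFSF10 (ENSGALG00000009179, chromosome 9, 18759709 to 18766555) encodes TRAIL, a ligand that can trigger death through its receptors. It stood at 9.32 (proximal) and 3.80 FPKM (distal) in F5, and 25.4 (proximal) and 16.7 FPKM (distal) in F1. Both F1 libraries lay above both F5 libraries, and TNFSF10 rose by 1.62 (SE 0.179, limma adjusted p = 0.0131), more than 97.8% of genes tested. It was higher in F1 by 2.72-fold (2.30 to 3.22) among proximal cells and by 4.41-fold (3.43 to 5.71) among distal cells. Its death receptor TNFRSF10B was not analysed here.

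TNFRSF1A (ENSGALG00000014890, chromosome 1, 78835923 to 78848886), the TNF receptor that carries a death domain, stood at 8.13 (proximal) and 9.97 FPKM (distal) in F5, and 3.77 (proximal) and 3.87 FPKM (distal) in F1. It fell by 1.05 (SE 0.146, limma adjusted p = 0.0152), with the F1 libraries nearly equal. TNFRSF21 (ENSGALG00000016719, chromosome 3, 109558090 to 109588428), another receptor with a death domain, stood at 15.7 and 15.8 FPKM in F5 and 9.61 and 5.89 FPKM in F1 and fell by 0.97 (SE 0.199, limma adjusted p = 0.0275). After median-ratio scaling the log2 difference was -0.62 (limma adjusted p = 0.0507), and without the filter on low values it stayed at -0.97 (limma adjusted p = 0.0514), both just past the threshold. TRAF2, an adaptor that brings BIRC2 to TNF receptors and favours survival signalling, stood at 24.0 and 21.6 FPKM in F5 and 13.6 and 9.02 FPKM in F1 and fell by 0.98 (SE 0.149, limma adjusted p = 0.0172). For all 3 genes both F1 libraries lay below both F5 libraries, a pattern whose share over all genes was not counted.

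The other members of the receptor pathway did not pass. FADD, the adaptor that binds caspase-8, was its highest gene at 30.9 (proximal) and 27.4 FPKM (distal) in F5, and 25.5 and 25 FPKM in F1 (limma adjusted p = 0.196). RIPK1, a kinase that can serve survival or death, stood at 5.70 and 5.72 FPKM in F5 and 5.13 and 5.10 FPKM in F1 (limma adjusted p = 0.442). TRADD, the adaptor of TNFRSF1A, stood at 5.31 and 5.5 FPKM in F5 and 4.12 and 3.76 FPKM in F1 (limma adjusted p = 0.0994). Each of these had its F1 libraries below its F5 libraries, by less than 1.5-fold within a position. The share of all genes so placed was not counted. After median-ratio scaling, however, FADD and RIPK1 were higher in F1 at both positions (log2 differences of 0.04 and 0.33 for FADD and 0.13 and 0.26 for RIPK1). TNFRSF1B, the TNF receptor without a death domain, stood at 2.75 and 2.51 FPKM in F5 and 1.64 and 1.80 FPKM in F1 (limma adjusted p = 0.102). FAS, a death receptor, was at the edge of detection with 11 and 15 reads in F5 and 33 and 14 in F1, or 0.424, 0.555, 1.18 and 0.645 FPKM. Among the survival regulators, MDM2, which targets p53 for degradation, stood at 20.5 and 18.8 FPKM in F5 and 17.2 and 17.4 FPKM in F1 (limma adjusted p = 0.263). AKT1, a kinase that phosphorylates several death proteins, stood at 14.8, 15.0, 15.7 and 14.9 FPKM, the narrowest range of the 25 tested genes, with a highest library 1.06 times the lowest. Its stage difference of 0.04 (limma adjusted p = 0.806) became 0.40 after median-ratio scaling (SE 0.103, limma adjusted p = 0.0464). TRADD shares 249 bases with FBXL8 on the other strand, and AKT1 86 bases with another row on the same strand, so the assignment of reads in those stretches is uncertain.

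By position, BMF, TNFSF10 and BOK had the largest estimates toward proximal cells among the 25 genes, and CASP6 and CFLAR the largest toward distal cells, each with the same direction in both stages. BID, TRAF2, CASP2, CASP9, APAF1, BCL2L1, FADD and CASP8 were also higher in proximal cells of both stages, and BCL2 and TNFRSF1A lower, by smaller amounts. After median-ratio scaling, which moves the median position difference of all genes from 0.14 to -0.04, CASP2, CASP9, APAF1, BCL2L1, FADD and CASP8 turned toward distal cells in at least 1 stage, and the other 9 of these genes kept their direction in both. In the limma fit with stage as a covariate 0 of the 25 genes passed in either direction, as 0.0% of all genes did in each, the smallest adjusted p over all genes being 0.0832. Unadjusted p-values lay below 0.05 for 1535 of 11203 genes and for 3 of the 25, and limma with voom weights on recovered reads called 0 genes. The 3 were BMF, with a log2 difference of 1.2 (SE 0.116, limma adjusted p = 0.115), BOK, with 0.78 (SE 0.114, limma adjusted p = 0.186), and TNFSF10, with 0.84 (SE 0.179, limma adjusted p = 0.268). These estimates lay above those of 98%, 95.5% and 96.2% of genes tested. With a pseudocount of 5 FPKM, 154 genes passed as higher in proximal cells and 5 as lower, and BMF was among the former (0.93, SE 0.101, limma adjusted p = 0.0293).

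BMF was 2.44-fold higher in F5 proximal than F5 distal cells (1.82 to 3.29) and 2.48-fold higher in F1 (1.96 to 3.15), nearly the same ratio in 2 pairs of libraries that share none. BOK was 1.84-fold higher in F5 (1.51 to 2.25) and 1.73-fold higher in F1 (1.36 to 2.20). TNFSF10 was 2.46-fold higher in F5 (1.88 to 3.23) and 1.52-fold higher in F1 (1.31 to 1.75). CASP6 was lower in proximal cells by 1.44-fold in F5 (1.09 to 1.91) and by 1.41-fold in F1, where the interval includes 1 (0.959 to 2.08). CFLAR was lower there by 1.34-fold in F5 (1.15 to 1.55) and by 1.18-fold in F1 (1.02 to 1.36). These ratios and intervals hold on the deposited scale, and their sizes depend on it. After median-ratio scaling the F1 log2 differences of BMF, BOK and TNFSF10 went from 1.23, 0.73 and 0.57 to 0.98, 0.48 and 0.31. Those of CASP6 and CFLAR went from -0.31 and -0.21 to -0.50 and -0.46. The summed oocyte markers were also higher in both proximal libraries, though SYCP3 was not in F5. DAZL had 128 and 102 reads in the proximal libraries against 3 and 0 in the distal ones. The summed leukocyte markers were higher in proximal cells too, at 2.01 against 0.957 FPKM in F5 and 0.583 against 0.385 FPKM in F1. So were the theca and stroma markers, at 16.4 against 10.6 FPKM in F5 and 13 against 7.5 FPKM in F1, and the endothelial markers, at 98.5 against 61.4 FPKM and 173.6 against 158.2 FPKM. In each of these lists some markers went the other way. LCP1, MPEG1, TEK and VWF were lower in F5 proximal than F5 distal cells. CD8A, PTPRC, CYP17A1 (0.135 against 0.305 FPKM), COL3A1, DCN, PDGFRA, EGFL7 (44.5 against 45.9 FPKM), KDR and TEK were lower in F1 proximal than F1 distal cells. All of these but EGFL7 stood below 1 FPKM in the libraries compared. The part of any of these lists in the position differences was not tested.

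Counted by a 2-fold difference in log2(FPKM + 1), without a test, 2 of the 25 genes, BMF and TNFSF10, were higher in F5 proximal than F5 distal cells, where 2.18% of all genes were. In F1 1 gene, BMF, was higher, against 5.18% of all genes, and 0 were lower in either stage, against 0.321% in F5 and 0.303% in F1. Between the stages, BCL2 and TNFSF10 were 2-fold higher in F1 at both positions, where 4.46% of all genes were in proximal and 5.36% in distal cells. Of these, BCL2 passed the filter on low values only through F1. AIFM1 alone was 2-fold lower in proximal cells, against 9.85% of all genes. In distal cells AIFM1, BID, CASP2, TNFRSF1A, TNFRSF21 and TRAF2 were, 6 of 25 against 17.8% of all genes. After median-ratio scaling BMF alone was 2-fold higher by position, in F5 only. Under that scaling BMF joined BCL2 and TNFSF10 as 2-fold higher in F1 at both positions, and AIFM1 alone was 2-fold lower, in distal cells. The share of all genes 2-fold apart under that scaling was not counted, so these results cannot be set against a background.

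**Figure D4:**
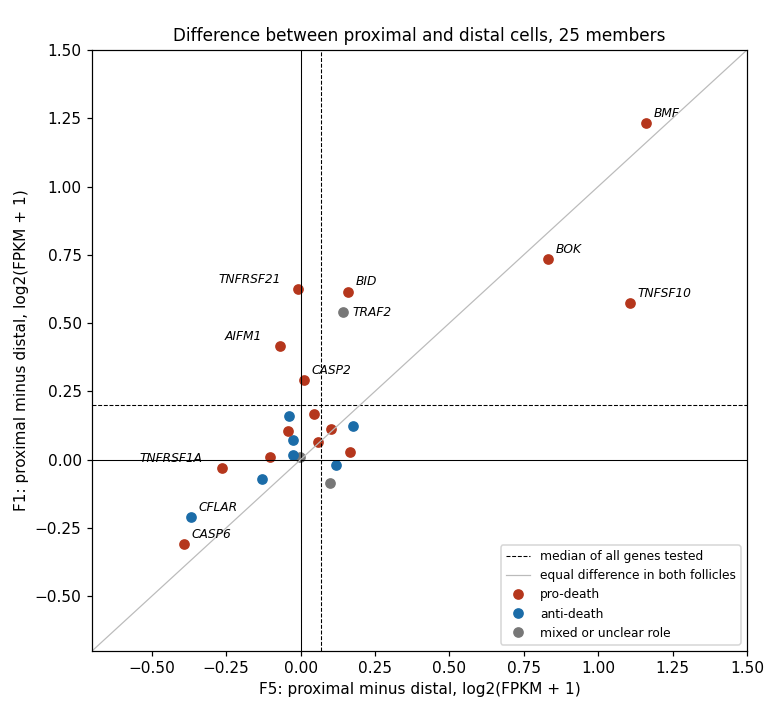
Difference between proximal and distal cells on the log2(FPKM + 1) scale in F5 (horizontal) and F1 (vertical) for the 25 genes tested, 1 point per gene, coloured by role in death. Dashed lines mark the medians of all genes tested, 0.07 in F5 and 0.20 in F1, and the grey diagonal marks equal differences. BMF, BOK and TNFSF10 stand apart at the upper right. TNFRSF21, BID, TRAF2 and AIFM1 lie furthest above the diagonal, where most of the points lie and the median gap of all genes is 0.13.

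The position difference was not alike in the 2 stages for every gene. TNFRSF21 differed by -0.01 in F5 and 0.62 in F1, where it was 1.63-fold higher in proximal cells (1.43 to 1.86). AIFM1 differed by -0.07 and 0.41, BID by 0.16 and 0.61, and TRAF2 by 0.14 and 0.54. After median-ratio scaling the differences in F5 and F1 were -0.12 and 0.38 for TNFRSF21 and -0.19 and 0.15 for AIFM1. For BID they were then 0.05 and 0.35, and for TRAF2 0.03 and 0.29. These are genes that fell from F5 to F1, and F1 distal cells were their lowest library. TNFSF10, which rose, had the smaller position difference in F1, 0.57 against 1.11, or 0.31 against 0.98 after median-ratio scaling. On the deposited scale the gap between the stages lay at 0.63 for TNFRSF21 and -0.53 for TNFSF10, beside a median of 0.13 over all genes. Below them lay 91.1% and 3.12% of genes tested. Below the gaps of AIFM1, BID and TRAF2 lay 85.6%, 84.1% and 80.4%, so these were less extreme. With 1 library a group these gaps could not be tested, since the residual degree of freedom of the fit holds them.

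Further genes of the same pathways were read from the same fit, as a frame for these values. Of 18 other BCL2 family and mitochondrial genes tested, 4 fell from F5 to F1 and 2 rose, with a median log2 difference of -0.11. AIFM2, a relative of AIFM1, fell by 1.56, from 98.9 and 107.5 FPKM in F5 to 38.8 and 30.2 FPKM in F1 (SE 0.150, limma adjusted p = 0.0121). BAG2, a co-chaperone, fell by 0.76, while BNIP3, a mitochondrial protein that promotes removal of mitochondria in low oxygen, rose by 1.07, from 24.5 and 17.5 FPKM in F5 to 44.6 and 44.9 FPKM in F1 (SE 0.154, limma adjusted p = 0.0158). Of 14 other caspases, inhibitors and substrates, 2 fell and 1 rose, with a median of -0.27. BIRC5, the survivin gene, which also serves in mitosis, fell by 2.13, from 59.1 and 48.1 FPKM in F5 to 27.3 and 4.48 FPKM in F1 (SE 0.533, limma adjusted p = 0.0408). DFFA, the inhibitor of the nuclease that cuts DNA in dying cells, fell by 0.52, and AVEN, which binds BCL-xL and APAF1, rose by 0.94 (SE 0.146, limma adjusted p = 0.0176).

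In the TNF pathway 7 of 16 other genes fell and 0 rose, with a median of -0.40. CHUK, a kinase of the NF-kappaB pathway, fell by 1.01, from 36.5 and 33.4 FPKM in F5 to 19.4 and 14.6 FPKM in F1 (SE 0.123, limma adjusted p = 0.0140), and CD40, a receptor of the TNF family, fell by 1.00 (SE 0.188, limma adjusted p = 0.0236). The p53 pathway had 7 of 19 down and 1 up, with a median of -0.42. GADD45B, a stress gene, fell by 0.79 and TP53INP1 by 0.71, whereas SESN2, a stress-induced regulator of growth signalling, rose by 0.59, from 427.6 and 395.0 FPKM in F5 to 625.7 and 611.2 FPKM in F1 (SE 0.0913, limma adjusted p = 0.0176). In the survival kinase pathway 5 of 15 fell and 2 rose, with a median of -0.28. PIK3R1, the regulatory subunit of PI3 kinase, fell by 1.60 (SE 0.181, limma adjusted p = 0.0132) and PDPK1, which activates AKT, by 0.90, while the survival kinases SGK1 and PIM3 rose by 0.86 (SE 0.125, limma adjusted p = 0.0160) and 0.70. After median-ratio scaling, 1 fell and 3 rose in the BCL2 family and mitochondrial list (median 0.26), 0 fell and 1 rose among caspases, inhibitors and substrates (0.06), and 4 fell and 1 rose in the TNF pathway (-0.06). The p53 pathway then had 2 down and 3 up (-0.04), and the survival kinase pathway 4 down and 3 up (-0.02). Over all genes tested 16.9% fell and 19.4% rose under that scaling, with a median of 0.002. BAG2, BIRC5, TP53INP1 and DFFA no longer passed under that scaling (limma adjusted p = 0.0503, 0.0562, 0.0980 and 0.292). The shares that fell on the deposited scale, between 14.3% and 43.8% by list, lay on either side of the 35.8% of all genes. For position 0 genes of these lists passed, as over all genes. BIRC7, an inhibitor of apoptosis gene singled out after its values were seen, stood at 7.35 against 2.13 FPKM in F5 and 8.04 against 0.779 FPKM in F1, higher in proximal cells of both stages without passing (1.88, limma adjusted p = 0.186).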

How the data were processed

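Poly-A selected RNA of 4 granulosa cell libraries was sequenced. The deposited tables hold FPKM per gene, computed by the authors; TopHat2 2.0.12 and HTSeq 0.6.1 are named in the submitters' processing notes, and the build, strand setting and pooling are not given in the sources used here. Whole reads over a whole gene length and the library totals fitted the FPKM of 16894 of 16894 genes above 0 (tolerance 1e-08); such reads are the smallest that fit, and on simulated libraries 96.4% of genes returned their exact reads. They gave depths, 95% exact (Clopper-Pearson) intervals and voom weights. Intervals cover counting error only. The 2 rows that name no gene were dropped.

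Tests were limma 3.58.1 in R 4.3.3 on log2(FPKM + 1), with stage and position in 1 additive fit over the 11203 genes averaging at least 1 FPKM, a mean-variance trend and Benjamini-Hochberg adjustment over all of them, two-sided. In a simulation of the stage effect over 11121 genes, 74 of 100 genes changed 2-fold, 94 of 94 changed 4-fold and 25 of 10927 unchanged genes were called. The simulated counts were independent, with few genes changed, no position effect and no position difference that varied with stage. They also held no shift of the typical gene. These rates therefore cannot be carried over to the 4 libraries. The labels show no separate animals. Every gene of the set found is named, with up to 2 highest and 2 lowest passing genes averaging at least 5 FPKM per further list. The genes and lists were chosen with earlier results of these data known. Alternatives were pseudocounts of 0.25 and 5, other filters, 2 other scalings, no trend, voom weights and fits of a factor alone.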

Additional observations from a re-analysis of the deposited data

How the results depend on the processing

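For the stage effect the additive fit on deposited FPKM called 1168 genes up and 4010 down, against 2169 and 1896 after median-ratio scaling and 2618 down with position left out. The members went from 3 up and 9 down to 8 up and 5 down after median-ratio scaling. Without a filter on low values 5 of 29 members fell, beside 3110 of 16894 genes. For position a pseudocount of 5 gave 154 genes higher and 5 lower, with 1 member higher, against 0 with a pseudocount of 1, and neither other scaling changed that 0. By the 2-fold rule, members higher in F5 proximal than distal cells went from 2 to 0 with a pseudocount of 5 and to 1 after median-ratio scaling, and members higher in F1 proximal than distal cells from 1 to 0 after that scaling. Members 2-fold higher in F1 went from 2 to 1 at either position with a pseudocount of 5 or a mean of at least 5 FPKM. Members 2-fold lower in F1 went from 1 to 2 in proximal cells with a pseudocount of 0.25 and to 0 after median-ratio scaling, and in distal cells from 6 to 1 with a pseudocount of 5 or after median-ratio scaling. Shares of all genes by the 2-fold rule were not counted under these alternatives, so the member counts have no background there. The causes were not tested. All 12 members called for stage kept their direction under each alternative run. AIFM1, BCL2, BID, CASP2, TNFRSF1A, TNFSF10 and TRAF2 also stayed below an adjusted p of 0.05 in each fit that held them, while BMF did so except with position left out (limma adjusted p = 0.321). TNFRSF21 passed in 8 of 10 fits, CASP9 in 5 of 9, and APAF1 and CASP6 in 4 of 9. A fit without any 1 library leaves no residual degree of freedom and was not run. No paired analysis was possible because each group has 1 library and the labels give no replicate numbers. Low counts limit BCL2 in F5, FAS and CASP10.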
